A study of Homo sapiens with 12 samples.

Results

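CYR61, CTGF, ANKRD1, AMOTL2, LATS2, YAP1, WWTR1 and TEAD1 were followed across wild-type (WT) and ATG7 knockout (KO) lens epithelial cells, with or without H2O2. They were chosen by name, with earlier results of these data known, and all 8 were found among the 58735 genes of the deposited tables. In the untreated cells the level of CYR61, CTGF, ANKRD1 and AMOTL2 was lower in the ATG7 KO line than in the WT line, by 0.93 to 1.18 on the log2 scale. Of all genes tested 3.28% were called lower there. When any single untreated WT replicate was left out, CTGF alone kept its call, with 0.68% to 0.713% of all genes called lower. After H2O2 all 8 genes were called higher in WT cells, as were 30.9% of all genes tested. In ATG7 KO cells 4 of them were, with 13.6% of all genes. No untreated group is labelled 12 h, so H2O2 and time in culture cannot be told apart. The median log2 change of the 8 was 0.68 in WT and 0.91 in KO cells, and without 1 untreated KO library that stood apart 7 of them were called higher in KO cells, with 29.8% of all genes. Under H2O2, YAP1 and TEAD1 were higher in ATG7 KO than in WT cells while the other 6 genes were lower. In that comparison 27.7% of all genes were called higher and 27.9% lower.

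YAP1 and WWTR1 (the gene of the protein called TAZ) encode coactivators that bind no DNA themselves and act in the nucleus through TEAD transcription factors, of which TEAD1 is a member. The Hippo kinase cascade ends in the LATS kinases, which phosphorylate both coactivators and keep them in the cytoplasm. CYR61 and CTGF (now also named CCN1 and CCN2) encode secreted matrix-associated proteins of the CCN family and, like ANKRD1, are the standard transcript readouts of YAP and TAZ. AMOTL2 and LATS2 are targets as well, and their proteins act back on YAP as inhibitors. In the lens, CTGF is also known as a product of TGF-beta signalling during the epithelial-mesenchymal change seen in cataract. Transcript levels do not show where the YAP and TAZ proteins are in the cell or whether they are phosphorylated.

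HLE-B3 is an immortalized human lens epithelial cell line. RNA-seq was run on 12 libraries in 4 groups of 3 biological replicates: untreated WT cells, WT cells exposed to 200 μM H2O2 for 12 h, untreated ATG7 KO cells (Atg7KO in the labels) and ATG7 KO cells exposed to the same dose for the same time. ATG7 is needed to build autophagosomes, and the comparison asked how cells without autophagy differ under oxidative stress. The KO line was made with CRISPR/Cas9, puromycin selection and picking of individual clones; which clone was sequenced is not given in the sources used here. A difference between the lines therefore cannot be told apart from a difference between clones. The untreated groups are labelled WT_0h and Atg7KO_0h, and no untreated group is labelled 12 h. A change with H2O2, in either line, therefore cannot be told apart from a change over 12 h in culture.

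Between 15602183 and 17659496 reads were assigned to genes per library, and the 8 genes held 219 to 22401 reads each. Levels are deposited FPKM values, read counts normalised to gene length and library size. ATG7 itself was not lower in the KO line (mean FPKM 3.55 against 2.55 untreated, 2.19 against 1.96 under H2O2), so its transcript does not check the label. Of 12 lens epithelial markers, CDH2, VIM and GJA1 had group means of 23.9 to 322 FPKM, and PAX6 lay between 0.560 and 1.27 FPKM. SOX2 had no reads, and FOXE3 and CRYAA had at most 3. CRYAB rose with H2O2 by 3.24 on the log2 scale in WT and by 5.98 in KO cells (5.51 without untreated KO replicate 1). A mean over 1 FPKM was reached by 4 of the 12 in each group except treated KO cells, where 3 reached it. The number with at most 3 reads in any library was 7 in untreated and 3 in treated WT cells, and 6 and 4 in KO cells. The 12 summed to between 348 and 551 FPKM per library, lowest in the treated KO cells (348 to 360.2). Among 9 markers of other cells COL1A1 was high throughout (243 to 626 FPKM), LUM was higher in the KO line (9.52 against 0.168 FPKM untreated), and DCN had at most 2 reads. Their sum ran from 615 to 648 FPKM in untreated and 267 to 284 in treated WT cells, and from 355 to 503 and 243 to 253 in the KO cells; their part in the results was not tested. Replicate 1 of the untreated ATG7 KO cells stood apart: against its other two replicates its genes of at most 2533 bases were higher by a median of 0.325 and those of at least 6945 bases lower by 0.334 (log2 CPM). Most fold changes and counts of calls from comparisons with untreated ATG7 KO cells are therefore followed by those without it. Medians over the 8 genes and over lists, the search for genes of like pattern and the values of neighbouring genes are given only with it included.

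TEAD factors recognise the letters GGAATG on either strand, and the expression values below concern TEAD targets. Promoter sequence is shown for the 3 genes whose stretch before the gene held these letters. The stretches of AMOTL2 and LATS2 held none and are not shown. The stretches are from RefSeq (GRCh38.p14) and were cut where the gene begins in the deposited table. CTGF on the minus strand is shown for chr6:131951374-131951622, ANKRD1 on the minus strand for chr10:90921277-90921337, and YAP1 on the plus strand for chr11:102110197-102110446. Capitals mark GGAATG.
CTGF: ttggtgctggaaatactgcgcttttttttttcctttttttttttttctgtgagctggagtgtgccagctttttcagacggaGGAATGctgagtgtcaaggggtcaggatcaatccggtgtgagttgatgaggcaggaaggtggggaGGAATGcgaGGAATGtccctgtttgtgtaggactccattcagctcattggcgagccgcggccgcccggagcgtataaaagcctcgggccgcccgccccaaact
ANKRD1: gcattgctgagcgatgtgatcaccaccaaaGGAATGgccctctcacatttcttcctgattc
YAP1: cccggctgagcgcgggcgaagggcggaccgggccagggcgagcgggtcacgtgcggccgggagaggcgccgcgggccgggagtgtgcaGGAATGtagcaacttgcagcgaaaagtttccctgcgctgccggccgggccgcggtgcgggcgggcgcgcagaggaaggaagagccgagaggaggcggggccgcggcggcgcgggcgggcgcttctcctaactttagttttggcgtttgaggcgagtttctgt
In windows of 250 bases before and 50 after the RefSeq start, searched on both strands, CTGF held GGAATG 3 times, with first bases 169, 104 and 95 before the start. ANKRD1 held it 2 times, at 220 and at 128, the second of which lies inside the gene as the deposited table draws it. YAP1 held it once at 162, AMOTL2 once at 69 before the second of its listed starts, LATS2 only after its start, and neither WWTR1 window held it. Of 35116 such windows over all genes, 14.0% held it at least once, 1.37% at least 2 times and 0.128% at least 3 times. ANKRD1 alone also held the AP-1 letters TGANTCA, which were in 7.71% of windows and which share no base with its GGAATG matches. The CArG box of SRF was in no member's window and in 1.29% of all windows. Promoters were matched for 6 of the 8 genes, without CYR61 and TEAD1. A match is a match of letters only.

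CYR61, at chr1:85580761-85583962 (plus strand, GRCh38), had the highest level of the 8 genes in every group. In untreated WT cells it stood at 336, 331 and 344 FPKM, rank 43 of all genes in that group, and after H2O2 at 538, 566 and 520.1 FPKM. In untreated ATG7 KO cells it was 189, 172 and 172 FPKM, and after H2O2 357, 354 and 378 FPKM. No group overlapped another, and the order ran from H2O2-treated WT cells down through treated KO and untreated WT to untreated KO cells. The treated KO cells and the untreated WT cells were neighbours in that order, with means of 363 ± 12.8 and 337 ± 6.63 FPKM (SD, n = 3).

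CTGF, at chr6:131948176-131951373 (minus strand, GRCh38), moved over the widest range of group means. Its level was 55.8, 53.5 and 53.8 FPKM in untreated WT cells and 152, 157 and 150.4 FPKM after H2O2. In ATG7 KO cells it was 27.2, 25.1 and 22.6 FPKM untreated and 95.5, 97.2 and 99.6 FPKM after H2O2. The groups again did not overlap and took the same order as for CYR61, with a 6.13-fold span between the highest and the lowest group mean, against 3.05-fold for CYR61.

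ANKRD1 encodes an ankyrin repeat protein of muscle sarcomeres and nuclei and lies at chr10:90912096-90921276 (minus strand, GRCh38). It was read at 14.2, 15.8 and 16.3 FPKM in untreated WT cells and at 28.1, 25.7 and 28.7 FPKM after H2O2. The ATG7 KO cells held 8.03, 6.47 and 5.98 FPKM untreated and 9.89, 10.95 and 14.7 FPKM after H2O2. Treated KO cells overlapped untreated WT cells, so those 2 groups are not ordered; WT cells with H2O2 lay above both and untreated KO cells below both. With 219 to 976 reads per library, ANKRD1 rests with LATS2 (222 to 746) on the fewest reads of the 8.

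AMOTL2 encodes an angiomotin family scaffold that holds YAP at cell junctions and lies at chr3:134355874-134375479 (minus strand, GRCh38). It was 29.2, 29.0 and 29.5 FPKM in untreated WT cells and 59.4, 59.6 and 51.3 FPKM after H2O2. In ATG7 KO cells it was 11.3, 17.3 and 16.6 FPKM untreated and 37.8, 38.7 and 37.5 FPKM after H2O2. The low value of 11.3 came from the replicate that stands apart, and all 4 groups stayed separate.

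LATS2, at chr13:20973032-21061547 (minus strand, GRCh38), encodes a kinase that phosphorylates YAP and TAZ. It was low: 5.05, 4.33 and 5.22 FPKM in untreated and 7.89, 8.37 and 7.11 FPKM in treated WT cells. In ATG7 KO cells it was 2.41, 3.41 and 4.43 FPKM untreated and 5.43, 5.37 and 5.32 FPKM after H2O2. The untreated groups of both lines overlapped, and their replicates spread by 0.474 (WT) and 1.01 FPKM (KO, SD).

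The coactivator gene YAP1, at chr11:102110461-102233423 (plus strand, GRCh38), followed another order. It was 27.3, 25.3 and 25.01 FPKM in untreated WT cells, 29.6, 31.5 and 29.8 FPKM in treated WT cells and 24.2, 29.4 and 30.7 FPKM in untreated KO cells. These 3 groups were not fully separated, since untreated KO cells overlapped both WT groups. Treated KO cells lay above all others at 47.6, 48.8 and 46.4 FPKM.

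WWTR1, at chr3:149517235-149736714 (minus strand, GRCh38), had group mean FPKM 4.06 to 7.36 times below those of YAP1. It held 5.35, 5.73 and 5.88 FPKM in untreated and 7.02, 8.10 and 7.28 FPKM in treated WT cells, and 6.56, 5.79 and 5.98 FPKM in untreated and 6.59, 6.69 and 6.13 FPKM in treated KO cells. Treated WT cells were separate from all other groups, and untreated KO cells overlapped both remaining groups. WWTR1-AS1, which overlaps the gene on the other strand, had 2 to 16 reads per library.

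TEAD1, the DNA-binding partner, lies at chr11:12674591-12944483 (plus strand, GRCh38). It was 19.5, 18.5 and 20.1 FPKM in untreated and 23.1, 24.1 and 23.2 FPKM in treated WT cells. In KO cells it was 9.44, 17.9 and 17.2 FPKM untreated and 30.1, 31.2 and 31.5 FPKM after H2O2. The 9.44 is again the replicate that stands apart; with 10279 bases TEAD1 is the longest of the 8 genes. Treated KO cells were highest and untreated KO cells lowest, with no overlap.

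The first comparison asked what loss of ATG7 changed without stress. By edgeR's quasi-likelihood test, at a Benjamini-Hochberg adjusted p under 0.01 over all genes, 4 of the 8 genes were lower in untreated ATG7 KO than WT cells and none was higher, where 3.28% of all genes tested were called lower and 4.42% higher. CYR61 fell by 0.93 on the log2 scale (SE 0.10, adjusted p = 0.00102). CTGF fell by 1.12 (SE 0.10, adjusted p = 0.000537). ANKRD1 fell by 1.18 (SE 0.14, adjusted p = 0.00168), and with CTGF it also met the study's thresholds for a differentially expressed gene, which add a log2 change over 1 and a mean over 1 FPKM. The study applied them to DESeq2 results; applied here to the edgeR estimates, they were met by 1.23% of genes in this direction. AMOTL2 fell by 0.95 (SE 0.17, adjusted p = 0.00914). In bulk RNA, fewer cells expressing a gene and less RNA per cell cannot be told apart. LATS2 (log2 difference -0.51, adjusted p = 0.152), TEAD1 (-0.38, 0.295), WWTR1 (0.11, 0.455) and YAP1 (0.12, 0.512) did not pass. TEAD1 and the 4 called genes were lower in every untreated KO library than in every WT one, as were 22.9% of all genes. The median over the 8 genes was -0.72, beside 0.00552 over all genes. Without replicate 1 of the untreated KO cells, CYR61 (-0.96), CTGF (-1.18), ANKRD1 (-1.31) and AMOTL2 (-0.78) were still called, LATS2 was also lower (-0.30, edgeR adjusted p = 0.00333), YAP1 was higher (0.22, adjusted p = 1.50e-05), and TEAD1 missed the threshold (-0.13, adjusted p = 0.0112). The share of all genes called then rose as well, from 7.70% to 36.2%. Without any single untreated WT replicate CTGF alone kept its call: the edgeR adjusted p rose to between 0.0125 and 0.0137 for CYR61, 0.0109 and 0.0160 for ANKRD1, and 0.0469 and 0.0489 for AMOTL2. AMOTL2 also missed it without KO replicate 2 (adjusted p = 0.0161) or 3 (0.0222).

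Under H2O2 the 2 lines were compared with much tighter replicates: the biological coefficient of variation, the spread between replicates beyond counting noise, was 0.0416 here against 0.162 in the untreated comparison. All 8 genes passed, 6 lower and 2 higher in ATG7 KO cells, but so did 27.9% (lower) and 27.7% (higher) of all genes. ANKRD1 differed most, lower by 1.22 on the log2 scale (SE 0.12, edgeR adjusted p = 3.88e-06), and was the only differentially expressed gene of the 8 (4.43% of all genes in this direction). No group overlapped the other for any of the 8, as for 33.4% (lower) and 34.7% (higher) of all genes. CTGF fell by 0.66 (SE 0.04, adjusted p = 1.19e-16). AMOTL2 fell by 0.59 and CYR61 by 0.58. These are the standard readouts and a feedback inhibitor, and the other inhibitor, LATS2, fell by 0.54 (SE 0.07, adjusted p = 2.98e-08). The upstream genes split: YAP1 rose by 0.64 (SE 0.04, adjusted p = 7.85e-16) and TEAD1 by 0.39 (SE 0.04, adjusted p = 4.43e-11), while WWTR1 fell by 0.21 (SE 0.06, adjusted p = 0.00175). YAP1 and TEAD1 thus differed between the lines in the opposite direction to CYR61, CTGF, ANKRD1 and AMOTL2. The median over the 8 genes was -0.56, beside -0.00218 over all genes. The WWTR1 call was lost without treated WT replicate 2 (adjusted p = 0.0245) or treated KO replicate 3 (0.0308); with all 12 libraries in 1 fit, WWTR1 (0.0521), LATS2 (0.0174) and TEAD1 (0.0829) did not pass.

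H2O2 raised all 8 genes in WT cells, with no overlap between groups for any of them; 30.9% of all genes were called higher, 30.1% lower, and 36.1% were higher without overlap. CTGF rose most, by 1.49 on the log2 scale (SE 0.04, edgeR adjusted p = 1.08e-31), and was the only differentially expressed gene of the 8 in this comparison, a class that held 7.3% of genes. AMOTL2 rose by 0.95 (SE 0.05, adjusted p = 2.91e-22) and ANKRD1 by 0.83 (SE 0.07, adjusted p = 5.54e-15). CYR61 rose by 0.68 and LATS2 by 0.67, so the 5 targets lay between 0.67 and 1.49. The coactivators and their partner rose less: WWTR1 by 0.39, TEAD1 by 0.27 and YAP1 by 0.22. The median over the 8 genes was 0.68, beside -0.00535 over all genes. With all 12 libraries in 1 fit, YAP1 (adjusted p = 0.0488) and TEAD1 (0.209) were not called.

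In ATG7 KO cells H2O2 raised 4 of the 8 genes, where 13.6% of all genes were called higher and 12.4% lower. CTGF rose by 1.96 (SE 0.10, edgeR adjusted p = 2.60e-05), AMOTL2 by 1.33 (SE 0.17, adjusted p = 0.00105) and CYR61 by 1.03 (SE 0.10, adjusted p = 0.000248), and all 3 were differentially expressed, as were 6.09% of genes. YAP1 rose by 0.75 (SE 0.12, adjusted p = 0.00231). TEAD1 (1.05, adjusted p = 0.0111), ANKRD1 (0.79, 0.0124) and LATS2 (0.64, 0.0432) had higher means and no overlap between groups, as did 30.2% of all genes, but missed the threshold; WWTR1 differed by 0.08 (adjusted p = 0.520). Without replicate 1 of the untreated KO cells 7 genes were called higher, with TEAD1 at 0.80, ANKRD1 at 0.92, LATS2 at 0.44 and YAP1 at 0.65, and WWTR1 still did not pass (0.12, edgeR adjusted p = 0.0664). Over all genes the share called higher rose in the same step from 13.6% to 29.8%, so that 58.4% were called in either direction. YAP1 lost its call without any single treated KO replicate (adjusted p 0.0135 to 0.0160). The 4 comparisons share their groups in pairs, so they are not independent of each other.

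**Figure D1:**
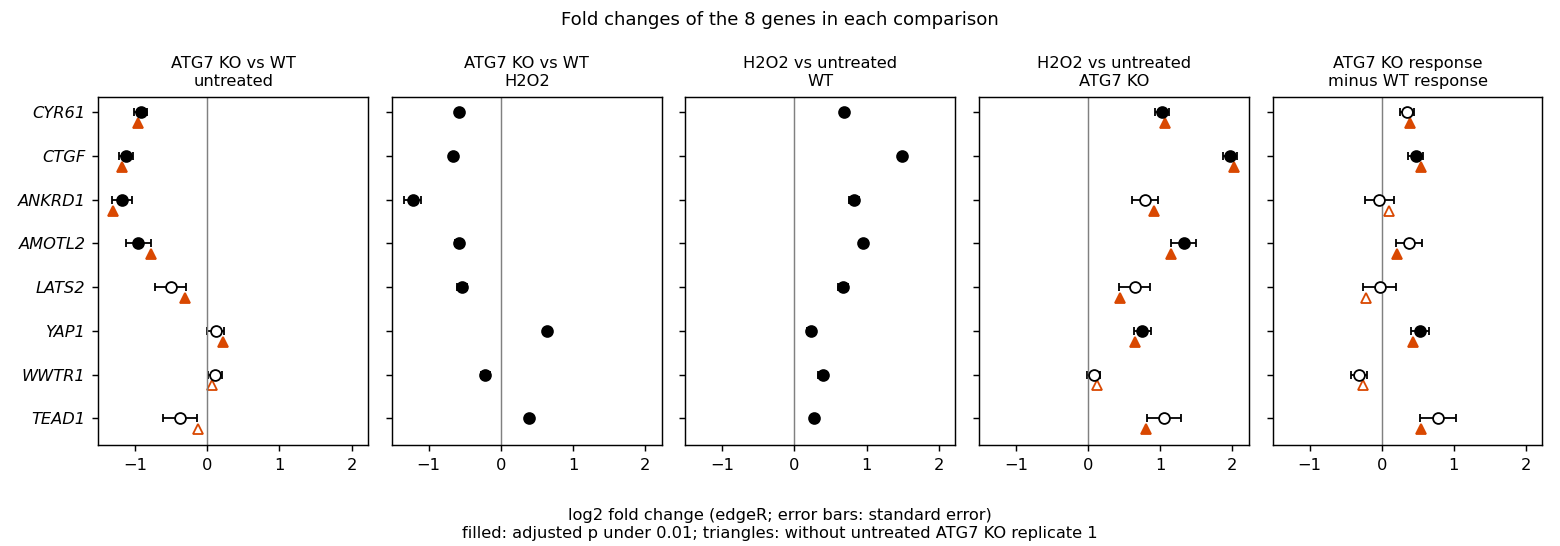
log2 fold change (horizontal axis) of each gene in the 4 group comparisons and in the difference of responses; circles are the edgeR estimates with SE, filled where the adjusted p is under 0.01, and triangles are the estimates without replicate 1 of the untreated ATG7 KO cells. CYR61, CTGF, ANKRD1, AMOTL2 and LATS2 lie below 0 in both line comparisons, LATS2 without a call in the untreated one. YAP1 and TEAD1 lie above 0 under H2O2 (0.64 and 0.39), and TEAD1 lies below 0 untreated (-0.38, not called).

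Whether the lines answered H2O2 differently was tested as the interaction over all 12 libraries. CTGF responded more strongly in ATG7 KO than in WT cells, by 0.47 on the log2 scale (SE 0.10, edgeR adjusted p = 0.00493), and so did YAP1, by 0.53 (SE 0.12, adjusted p = 0.00760); 7.02% of all genes were called in this direction and 7.01% in the other. TEAD1 (0.78, adjusted p = 0.0306), CYR61 (0.35, 0.0211), AMOTL2 (0.38, 0.133) and WWTR1 (-0.32, 0.0522) did not pass. For ANKRD1 (-0.03, SE 0.20) and LATS2 (-0.03, SE 0.23) the estimates were smaller than their standard errors. Without replicate 1 of the untreated KO cells 5 genes passed, CTGF (0.54), YAP1 (0.44), TEAD1 (0.54), CYR61 (0.40) and AMOTL2 (0.21), while the share of all genes called rose from 14.0% to 34.1%. The CTGF and YAP1 calls were lost when any single WT or treated KO replicate was left out, with edgeR adjusted p between 0.0122 and 0.0160 for CTGF and between 0.0157 and 0.0245 for YAP1. Set side by side, CTGF was lower in KO than WT cells by 1.12 before and by 0.66 after H2O2 on the log2 scale.

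The deviation of the doubtful replicate was read gene by gene. Against the mean of its other two replicates it was lower by 0.902 for TEAD1, 0.69 for LATS2, 0.594 for AMOTL2 and 0.317 for YAP1 (log2 CPM), and higher by 0.358 for ANKRD1, 0.182 for CTGF, 0.149 for WWTR1 and 0.127 for CYR61. The 3 shortest of the genes (1979 to 2455 bases) were thus high in it and 4 of the 5 longer ones low, the exception being WWTR1 with 8413 bases. What made the library differ was not tested.

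Other genes of the pathway were counted by lists, which were also chosen with earlier results of these data known. Of 17 further Hippo kinases and scaffolds, 14 were higher and none lower in ATG7 KO than WT cells under H2O2, where 27.7% of all genes were called higher and 27.9% lower. Their median was 0.32, beside -0.00218 over all genes. The 3 that did not pass were STK4, MOB1A and WWC2. FRMD6, a scaffold that recruits the cascade to the membrane, was also higher in the untreated KO cells (0.80, edgeR adjusted p = 0.00206; 0.86 without KO replicate 1), a call lost when any other single library was left out (adjusted p up to 0.0230). It rose with H2O2 in WT cells by 1.12 and in KO cells by 0.60, or 0.54 without that replicate; the KO call held in 2 of 6 fits with 1 library left out. AMOTL1, the closest relative of AMOTL2, rose with H2O2 by 1.06 in WT and 1.74 in KO cells (1.48 without KO replicate 1) but, unlike AMOTL2, was higher under H2O2 in KO cells (0.33). AMOT, the founding angiomotin, fell with H2O2 in WT cells by 1.07, and STK4, the kinase MST1, rose in both lines by 0.40 and 0.97 (0.85 without it). In the untreated comparison 2 of the 17 were higher and none lower, against 4.42% and 3.28% of all genes. Without KO replicate 1 these counts became 5 and 5 (18.2% and 17.9% of all genes), and without any other single library they were 0. Over all genes the shares in those other fits were 1.14% to 2.13% higher and 0.68% to 1.26% lower. With all 12 libraries in 1 fit, 5 rather than 14 were higher in KO cells under H2O2. That fit called 28.9% rather than 55.6% of all genes in either direction.

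In WT cells H2O2 raised 9 and lowered 6 of the 17, where 30.9% and 30.1% of all genes were called. In KO cells it raised 6 and lowered none, against 13.6% and 12.4% of all genes. Without the doubtful replicate the KO counts were 12 and 3 (29.8% and 28.6% of all genes). Leaving out either other untreated KO replicate gave 4 raised (9.16% to 9.49% of all genes). Leaving out any treated one gave between 2 and 3 (6.54% to 6.57% of all genes). Of the TEAD and VGLL genes other than TEAD1, 3 of 5 were higher and none lower in KO cells under H2O2 (27.7% and 27.9% of all genes): TEAD3 (0.27), VGLL3 (0.18) and VGLL4 (0.40). VGLL4 competes with YAP for TEAD and rose with H2O2 in WT cells by 0.47 and in KO cells by 1.08, or 0.87 without the doubtful replicate. TEAD3 rose by 0.32 in WT and 0.95 in KO cells, or 0.78 without it. Both calls in KO cells were lost without any single treated KO replicate, with an edgeR adjusted p of up to 0.0251 for VGLL4 and 0.0193 for TEAD3. VGLL3 fell in WT cells by 1.30 with H2O2 and did not pass in KO cells (-0.26; -0.50 and called without the doubtful replicate). By the interaction its responses differed by 1.04 (edgeR adjusted p = 0.00654), or 0.82 without that replicate, and this call was lost without any single WT or treated KO replicate (adjusted p up to 0.0187). TEAD2 fell in WT cells by 0.48. None of the 5 passed in the untreated comparison, and 1 was lower there without the doubtful replicate (17.9% of all genes). With all 12 libraries in 1 fit none passed under H2O2 between the lines, where 28.9% of all genes were called.

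Other genes known as YAP and TAZ targets did not move as 1 block. Under H2O2 11 of 16 were lower and 3 higher in ATG7 KO cells (median -0.38), where 27.9% and 27.7% of all genes were called. Untreated, 5 were lower and 1 higher (median -0.47), against 3.28% and 4.42% of all genes. These became 11 and 3 without the doubtful replicate (17.9% and 18.2% of all genes). Leaving out either other KO replicate gave 3 to 4 lower (1.25% to 1.26% of all genes). Leaving out any untreated WT replicate gave 2 (0.68% to 0.713%). IGFBP3, an IGF-binding protein, was lower by 3.83 untreated, with or without the doubtful replicate, and by 3.09 under H2O2, the widest gap of the list. GADD45A, a growth arrest and DNA damage gene, was lower by 1.94 under H2O2, and the kinase gene NUAK2 by 0.42. H2O2 raised 6 and lowered 10 of the 16 in WT cells (median -0.49), where all 8 of the genes above rose and 30.9% and 30.1% of all genes were called. GADD45A (3.81) and NUAK2 (2.21) rose in WT cells, and RBMS3, an RNA-binding protein gene, fell by 1.92. In KO cells H2O2 raised 4 and lowered 5 (13.6% and 12.4% of all genes), with GADD45A at 2.42, NUAK2 at 1.68 and RBMS3 at -1.66. Without the doubtful replicate these were 6 and 8 (29.8% and 28.6%), with GADD45A at 2.66 and RBMS3 at -1.78. Without any single treated KO replicate 2 were lowered (4.52% to 4.64% of all genes). By the interaction, the GADD45A response was lower in KO cells by 1.39 (edgeR adjusted p = 0.000753), or by 1.13 without the doubtful replicate.

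SRF and its MRTF coactivators drive actin and smooth muscle genes and share targets such as CTGF and CYR61 with YAP. Of 13 SRF and MRTF genes, 10 were lower and 2 higher in ATG7 KO cells under H2O2 (median -0.53), where 27.9% and 27.7% of all genes were called. Untreated, 2 were lower and none higher (3.28% and 4.42% of all genes). Without the doubtful replicate 8 were lower (17.9%), without either other KO replicate 1 (1.25% to 1.26%), and without any untreated WT replicate none (0.68% to 0.713%). ACTG2, a smooth muscle actin, differed between the lines by -1.19 untreated, or -1.33 without the doubtful replicate, and by -2.63 under H2O2. TAGLN differed by -0.60 untreated, or -0.62 without that replicate, and by -1.62 under H2O2. The untreated calls held in 3 of 6 fits with 1 library left out for ACTG2 and in 1 of 6 for TAGLN. TPM1, a tropomyosin, differed by -1.16 under H2O2. ACTG2 rose with H2O2 in WT cells (0.51) and fell in KO cells (-0.92; -0.77 without the doubtful replicate), a call that was lost without any other single library (edgeR adjusted p up to 0.0293). TAGLN rose by 0.18 in WT cells, a call that held in 3 of 6 such fits, and fell by 0.84 in KO cells, or by 0.81 without the doubtful replicate. By the interaction the responses were lower in KO cells by 1.43 for ACTG2 and 1.02 for TAGLN (edgeR adjusted p = 0.000184 and 0.000102), or by 1.27 and 0.98 without that replicate. MRTFB fell with H2O2 in WT cells by 1.49 and was higher in KO cells under H2O2 (0.68).

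Of the other CCN genes, NOV (CCN3) alone passed the filter on low counts, with 8 to 42 reads per library. It was higher in untreated KO than WT cells (0.639 ± 0.115 against 0.188 ± 0.0200 FPKM, SD, n = 3) and rose with H2O2 in WT cells to 0.893 FPKM. NOV did not pass for H2O2 in KO cells (0.581 FPKM). The untreated log2 difference was 1.74 (edgeR adjusted p = 0.00707), opposite in sign to those of CYR61 and CTGF. It was 1.75 without the doubtful replicate, and the call was lost when any other single library was left out (adjusted p up to 0.0450). WISP1 had no reads, and WISP2 and WISP3 had at most 11.

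The genes whose pattern over the 12 libraries lay closest to CYR61 and CTGF were sought among 2789 genes, by the root mean square difference of log2 CPM centred on each gene's own mean. For CYR61 they were POLR1E (0.0947), IQCB1 (0.138) and PHGDH (0.145). For CTGF they were NCEH1 (0.157), LBH (0.201) and KRT34 (0.238). The 12 libraries included the doubtful replicate. Of the 8 genes themselves, AMOTL2 lay at 0.231 from CYR61 (rank 36) and at 0.350 from CTGF (rank 31). LATS2 (0.269, rank 80) and ANKRD1 (0.285, rank 93) were also nearer to CYR61 than CTGF was. From CTGF they lay at 0.612 (rank 404) and 0.525 (rank 200). CTGF lay at 0.444 from CYR61, rank 356 for CYR61, and CYR61 was at rank 92 for CTGF.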

How the data were processed

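RNA-seq of HLE-B3 cells was deposited by the authors as a table of raw counts and a table of FPKM values per gene, made per the labels with HISAT2 2.0.5 and featureCounts 1.5.0-p3 on GRCh38; whether counting used strand is not given in the sources used here. The deposited FPKM values equalled count over gene length and library total times 1 factor per library (0.949 to 1.017). Total counts per library ran from 15602183 to 17659496.

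Genes were filtered with filterByExpr (minimum count 10), scaled by TMM and tested with the robust quasi-likelihood test of edgeR 4.0.16 (R 4.3.3), with Benjamini-Hochberg adjustment over all genes tested. Each pair of groups was fitted on its own 6 libraries and the interaction on all 12. The threshold was an adjusted p under 0.01; a differentially expressed gene also had a log2 fold change over 1 and a mean FPKM over 1 in either group, thresholds that the study applied to DESeq2 results and that were applied here to the edgeR estimates. Scripts were tested on simulated data. Alternatives were DESeq2 1.42.0, limma 3.58.1 on log2(FPKM + 1) and log2(FPKM + 0.1), other scalings, no filter, an adjusted p under 0.05, 1 fit of all libraries, a lowess correction for gene length, a replicate block and leaving out each library. Named genes were all 8 members and, of each list, up to 4 with the widest called change; the likeness search took the 3 nearest genes, and that for ANKRD1 is not reported here. Members and lists were chosen with earlier results of these data known. Protein sequences were not used here.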

Additional observations from a re-analysis of the deposited data

Results flagged for a closer look

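For 2 of the 8 genes the response to H2O2 differed between the lines by the test of that difference, where 7.02% of all genes were called in this direction and 7.01% in the other. The log2 response of CTGF was larger in ATG7 KO than in WT cells by 0.47 (SE 0.10, edgeR adjusted p = 0.00493), with 1.96 in KO and 1.49 in WT cells. The response of YAP1 was larger by 0.53 (SE 0.12, edgeR adjusted p = 0.00760), with 0.75 in KO and 0.22 in WT cells. Without replicate 1 of the untreated KO cells, the differences were 0.54 for CTGF and 0.44 for YAP1, and 34.1% rather than 14.0% of all genes were called. Both calls were lost without any single WT or treated KO replicate (edgeR adjusted p from 0.0122 to 0.0160 for CTGF and from 0.0157 to 0.0245 for YAP1). YAP1 also lost its call with upper quartile scaling and with the replicate block (edgeR adjusted p = 0.0133 with the block).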

How the results depend on the processing

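H2O2 in WT cells gave 8 genes higher under every alternative except the single fit of all 12 libraries, which dropped YAP1 and TEAD1. That fit called 40.5% rather than 61.0% of all genes in this comparison. For ATG7 KO against WT cells under H2O2, the genes called higher went from 2 to 1 in the single fit. The share of all genes called in either direction went from 55.6% to 28.9%. H2O2 in KO cells raised 7 genes rather than 4 at an adjusted p under 0.05 and in the single fit. For the difference of responses 4 genes rather than 2 passed at 0.05, 1 with upper quartile scaling and 1 with the replicate block. The share of all genes called was 14.0% at first, 30.1% at 0.05, 14.1% with that scaling and 11.8% with the block. Leaving out each library in turn gave 1 to 5 genes lower and 0 to 1 higher in untreated KO against WT cells, 3 to 7 higher for H2O2 in KO cells, and 0 to 5 for the difference of responses. Over all genes the shares in the untreated comparison ran from 0.68% to 17.9% lower and from 1.14% to 18.2% higher. They ran from 6.54% to 29.8% higher for H2O2 in KO cells and from 3.59% to 17.8% higher for the difference of responses.

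The difference of responses changed sign for ANKRD1 with the gene length correction (0.29) and over left-out libraries (-0.21 to 0.10), and for LATS2 with limma on log2(FPKM + 0.1) (0.0106) and over left-out libraries (-0.22 to 0.21); neither passed under any of these, and the cause was not tested. In the untreated comparison AMOTL2 missed the threshold with limma (adjusted p 0.0111 and 0.0115).

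Samples with the same replicate number did not deviate together (12 correlations from -0.04 to 0.1). Whether the numbers pair the samples is not settled by this, since the deviations also hold counting noise. With the replicate block 499 rather than 1182 genes were called in the untreated comparison; of the 8 genes, AMOTL2 was lost there (-0.98, edgeR adjusted p = 0.0165), TEAD1 passed for H2O2 in KO cells (1.11, 0.00851), and YAP1 was lost for the difference of responses (0.54, 0.0133).

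Comparisons with untreated KO cells had a wider spread, with a biological coefficient of variation of 0.162 against untreated WT and 0.161 against treated KO cells. Replicates 2 and 3 of the untreated KO cells were close to each other (Pearson r 0.992), while replicate 1 reached 0.974 with each. The lowest read count of the 8 genes was 219. The KO line and its clone cannot be told apart, and neither can H2O2 and time in culture.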

Other observations

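The genes within 2 megabases of each of the 8 were read after their values had been seen, as differences of mean log2 CPM between ATG7 KO and WT cells. Near AMOTL2, 15 of 19 expressed neighbours were lower in KO cells under H2O2 (median -0.17) and 16 of 19 untreated (median -0.37), beside -0.58 and -0.98 for AMOTL2 itself. Near WWTR1, also on chromosome 3, 17 of 20 were lower under H2O2 (median -0.21) and 18 of 20 untreated (median -0.31), beside -0.21 and 0.11 for WWTR1 itself. Near CTGF the neighbours leaned the other way, with 3 of 16 lower under H2O2 (median 0.37) and 4 of 16 untreated (median 0.46). CTGF itself differed by -0.65 and -1.13. Near CYR61, 15 of 30 were lower under H2O2 and also untreated (both medians 0.02), where CYR61 differed by -0.58 and -0.93. Near ANKRD1, 18 of 30 were lower under H2O2 (median -0.08) and 20 of 30 untreated (median -0.23), beside -1.23 and -1.18 for ANKRD1. Near LATS2, 9 of 19 were lower under H2O2 (median 0.01) and 6 of 19 untreated (median 0.13), beside -0.53 and -0.55 for LATS2. Near YAP1, 8 of 15 were lower under H2O2 (median -0.20) and 7 of 15 untreated (median 0.002), beside 0.65 and 0.11 for YAP1. Near TEAD1, 8 of 22 were lower under H2O2 (median 0.09) and 13 of 22 untreated (median -0.09), beside 0.39 and -0.44 for TEAD1. The median over all expressed genes was -0.00401 under H2O2 and -0.0076 untreated. Replicate 1 of the untreated KO cells was included. No test was run on these values.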
